A study of Homo sapiens with 6 samples.

Results

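The 10 genes described here were the long noncoding RNAs (lncRNAs) SNHG1, SNHG3, SNHG5, SNHG6, SNHG7, SNHG8, SNHG12, SNHG15, SNHG16 and GAS5, all hosts of small nucleolar RNAs (snoRNAs). Their rows were found by name, with a rule that uses no measured value, as those of the deposited expression table whose gene name holds one of these symbols. Each symbol matched 1 row, which gave 10 of the 27918 genes and loci in the table, and all 10 passed the filter on low values. The row of SNHG3 also carried the name of RCC1, a coding gene whose transcripts share its strand and part of its exons, so its values belong to both genes.

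The samples were HCT-116 cells, an established human colorectal carcinoma line, transfected with a GapmeR. A GapmeR is an antisense oligonucleotide with a DNA center that directs RNase H to the RNA it pairs with. There were 3 libraries from cells given a negative control GapmeR (GapNC) and 3 from cells given a GapmeR against the lncRNA CASC9 (GapC9), with no other alteration named in either group. The comparison of both groups was made to find genes whose expression depends on CASC9. The sources do not say whether the 3 libraries of a group came from separate cultures, so p-values measure the spread between these libraries, which may be technical. The stated time between transfection and RNA extraction differs within the paper.

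Most human snoRNAs are cut from the introns of longer RNAs and then guide the chemical modification of other RNAs, chiefly ribosomal RNA. Box C/D snoRNAs direct methylation of the ribose and box H/ACA snoRNAs direct pseudouridylation. In SNHG genes the spliced exons encode no conserved protein. Several of these spliced RNAs, with GAS5 as the classic case, are removed by nonsense-mediated decay when they are translated. Several, again with GAS5 as the classic case, start with a run of pyrimidines like that of the mRNAs of ribosomal proteins, whose translation follows growth signals. SNHG RNAs have been widely studied as RNAs raised in tumors, colorectal carcinoma included, whereas GAS5 accumulates in growth-arrested cells.

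The sequence around the start of each host gene is shown because a pyrimidine run at this place is the feature best known to be shared by this class. RefSeq start sites on GRCh38.p14 were matched by symbol for 8 of the 10 genes, and SNHG6 and SNHG15 had no entry. Each line gives the 20 bases before the start and the 20 bases from the start on, with the longest run of C or T that lies within 5 bases of the start, or reaches into that stretch, in capitals.
SNHG1: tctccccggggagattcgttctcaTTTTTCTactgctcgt
SNHG5: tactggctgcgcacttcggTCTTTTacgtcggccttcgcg
SNHG16: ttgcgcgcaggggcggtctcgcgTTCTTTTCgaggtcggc
GAS5: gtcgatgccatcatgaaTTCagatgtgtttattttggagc
SNHG3: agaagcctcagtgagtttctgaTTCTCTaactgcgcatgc
SNHG7: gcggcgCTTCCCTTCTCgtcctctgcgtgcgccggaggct
SNHG8: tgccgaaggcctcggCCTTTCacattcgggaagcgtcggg
SNHG12: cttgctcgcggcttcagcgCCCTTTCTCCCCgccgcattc
These windows lie at chr11:62855866-62855905 (minus strand), chr6:85678714-85678753 (minus strand), chr17:76557744-76557783 (plus strand), chr1:173869026-173869065 (minus strand), chr1:28505923-28505962 (plus strand), chr9:136728165-136728204 (minus strand), chr4:118278742-118278781 (plus strand) and chr1:28581854-28581893 (minus strand). The run was at least 6 bases long in 7 of the 8 genes, against 23.1% of all 35116 RefSeq promoters. It included the annotated start base itself in SNHG5, SNHG8 and SNHG12 only. In SNHG1, SNHG3 and SNHG16 it began 4, 2 and 3 bases after that base. The longest was the run of 12 bases in SNHG12, which began 1 base before the annotated start. SNHG7 followed with 11 bases, which began 14 bases before its annotated start and ended ahead of it. The GAS5 entry had a run of 3 bases. The entries of GAS5, SNHG3 and SNHG16 start ahead of their GENCODE genes, and each window rests on a single annotated start.

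SNHG16 and SNHG12 lay farthest apart between the groups in the values below, in opposite directions, so the whole promoter window of each, 250 bases before the start and 50 from it on, is given. SNHG16 is read on the plus strand at chr17:76557514-76557813 and SNHG12 on the minus strand at chr1:28581824-28582123, and the capitals again mark the pyrimidine run.
SNHG16: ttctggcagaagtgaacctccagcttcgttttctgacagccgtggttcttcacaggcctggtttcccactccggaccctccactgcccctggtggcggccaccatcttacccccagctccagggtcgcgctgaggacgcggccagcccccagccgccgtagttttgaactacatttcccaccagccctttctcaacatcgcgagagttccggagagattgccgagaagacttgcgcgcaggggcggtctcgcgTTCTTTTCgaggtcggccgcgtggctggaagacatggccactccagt
SNHG12: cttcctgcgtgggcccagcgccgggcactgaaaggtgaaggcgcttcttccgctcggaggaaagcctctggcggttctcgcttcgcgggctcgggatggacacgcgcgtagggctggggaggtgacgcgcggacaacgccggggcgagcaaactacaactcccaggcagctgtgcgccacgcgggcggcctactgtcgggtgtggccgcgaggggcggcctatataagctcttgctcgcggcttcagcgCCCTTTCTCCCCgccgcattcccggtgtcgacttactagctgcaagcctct
The letters TATATAA, searched on both strands, occurred in the windows of SNHG12 and SNHG5, which made 2 of 8 genes against 2.57% of all promoters. TATAAA occurred in 2 of the 8, SNHG1 and SNHG7, against 11.5% of all promoters, and CCAAT in 2 of the 8, SNHG5 and GAS5, against 34.6%. CACGTG occurred in 1 of the 8, SNHG7, against 7.26% of all promoters, and CCGGAAG in 0 of the 8 against 10.3%. These matches describe the letters of the windows and say nothing of binding.

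The RNA targeted by the GapmeR, CASC9, was close to the lowest values of the table in every library. It was listed at 0, 0.0108 and 0 FPKM (fragments counted on a gene, scaled to its exon length and to the mapped reads of the library) in GapNC replicates 1, 2 and 3, and at 0.0528, 0.107 and 0 FPKM in the libraries labelled GapC9. The groups overlapped (two-sided exact permutation test, p = 0.4, with 0.1 as the smallest value that 3 libraries against 3 can reach), so the table does not show the knockdown that the labels name, and the second group is described throughout as the libraries labelled GapC9. Every direction below rests on these labels, which the level of CASC9 in the table cannot check, and would turn if they were exchanged. Depth was about 22.8 to 24.4 M (mega) fragments per library, if the smallest common step among low values is 1 fragment. The row of SNHG12 in GapC9 replicate 3 then rested on roughly 92 fragments, the fewest of any host in any library, taking the median length of its listed transcripts. Of 8 colorectal epithelial markers, EPCAM, KRT8, KRT18 and KRT19 were at 62.3 to 480.2 FPKM in every library, CDH1 was at 8.43 to 14.3 and CDX2 at 1.59 to 3.79 FPKM, and VIL1 and LGALS4 were at most 0.0528 FPKM, and 3 leukocyte markers (PTPRC, CD3E and CD14) reached at most 0.113 FPKM and 4 endothelial markers at most 0.0467 FPKM. The row of CD68, a further leukocyte marker, is joined with EIF4A1 and other genes and cannot be read for CD68. Of 3 fibroblast markers, COL3A1 was at 3.03 to 4.13 FPKM, COL1A1 at 1.06 to 1.54 FPKM and COL1A2 at most 0.00185 FPKM. GapNC replicate 1 stood apart in its relation to GC content. Across 10117 genes, Spearman's correlation of GC content with a gene's deviation from its own mean was 0.630 in that library and between -0.389 and 0.0259 in the other 5, which is set beside the affected genes below.

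All 10 rows were above 4 FPKM in every library, that of SNHG3 as a value joined with RCC1 that gives no level for SNHG3 alone. FPKM is scaled to transcript length, so levels can be set side by side between genes. In GapNC the mean levels ran from 6.15 FPKM for SNHG15 to 44.5 FPKM for SNHG16, in the order SNHG16, SNHG6, SNHG3, SNHG1, GAS5, SNHG8, SNHG12, SNHG7, SNHG5 and SNHG15. SNHG16, SNHG6 and the joined row of SNHG3 and RCC1 were each above the next gene in 2 of 3 libraries, so none of these 3 was separated from the one after it. From SNHG1 downward each gene was above the next in all 3 GapNC libraries, apart from SNHG12 and SNHG7, which averaged 11.5 and 11.2 FPKM. In the libraries labelled GapC9, SNHG16 stood first at 75.2 FPKM and was above SNHG6, the next in order, in 3 of 3 libraries. SNHG6, SNHG3 and SNHG1 again ran into each other at 44.1, 39.9 and 38.0 FPKM. At the lower end SNHG12 moved from the seventh place to the ninth, at 7.29 FPKM, where it was not separated from SNHG7 above it or SNHG15 below it.

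**Figure D1:**
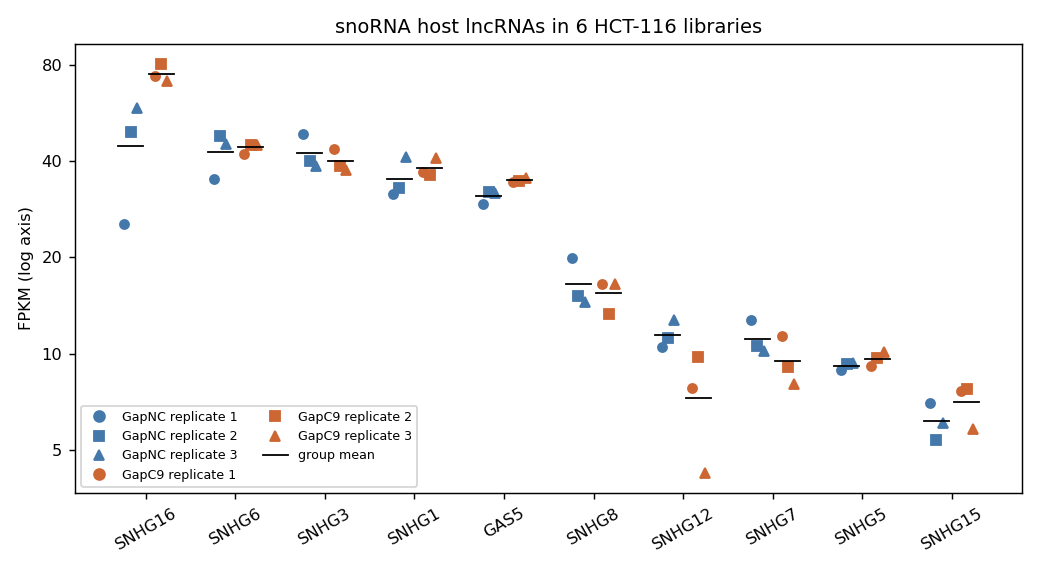
FPKM of the 10 snoRNA host lncRNAs (log axis) in GapNC (blue) and in the libraries labelled GapC9 (orange), with 1 symbol per replicate and a black line at the mean of 3. SNHG16, at 25.5 to 58.7 FPKM in GapNC and 71.2 to 80.3 FPKM in GapC9, and SNHG12, at 10.5 to 12.7 FPKM and 4.24 to 9.78 FPKM, show the largest distances between groups.

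The comparison asked whether the level of any host RNA differed between the groups. Of the 10 host RNAs, 0 passed an adjusted p of 0.05, against 6.99% of the 16028 genes and loci tested with limma on log2(FPKM + 0.1). Their adjusted p-values ran from 0.161 to 0.832. At an unadjusted p under 0.05 there was 1 of 10, SNHG16, against 25.9% of all rows. The study's thresholds were applied to the limma values, since its edgeR test cannot be run on FPKM. By these, a ratio of means of at least 2 or at most 0.5 with an unadjusted p under 0.05, there were 0 of 10, against 6.42% of all rows. SNHG16 and GAS5 were higher in GapC9 with no overlap between groups (2 of 10, against 12.6% of all rows), and SNHG12 was lower with no overlap (1 of 10, against 21.6%). The log2 difference was above 0 for 6 and below 0 for 4 of the genes, with a median of 0.06 beside -0.08 over all rows tested.

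**Figure D2:**
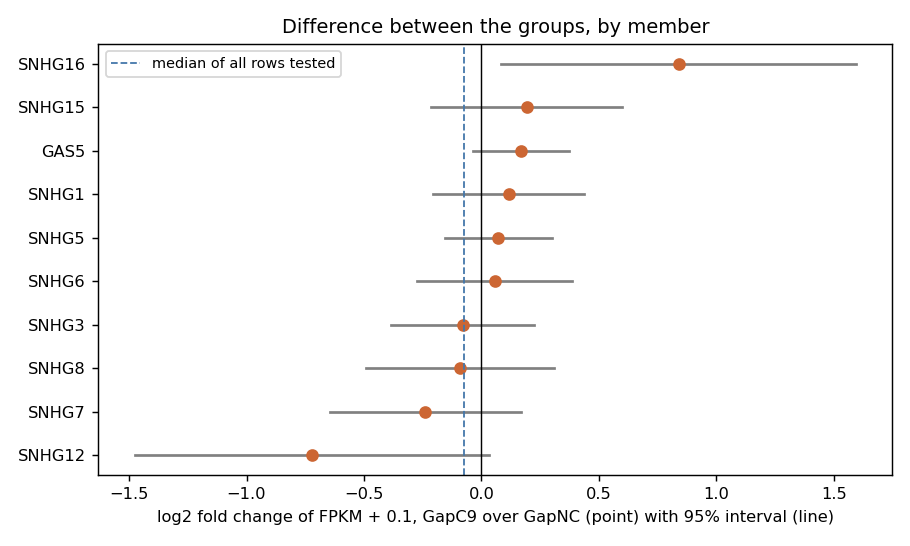
Log2 fold change of FPKM + 0.1 (GapC9 over GapNC) of each host RNA, with its 95% interval from limma, beside 0 (solid line) and the median of all 16028 rows tested (dashed line, -0.08). The interval of SNHG16, from 0.08 to 1.60, is the 1 among the 10 that leaves out 0, and that of SNHG12 runs from -1.48 to 0.03.

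The hosts of box C/D snoRNAs are SNHG1, SNHG5, SNHG6, SNHG16 and GAS5. SNHG16 hosts SNORD1A, SNORD1B and SNORD1C and occupies 76557766 to 76565348 of chromosome 17 in GRCh38, plus strand, with up to 5 exons in the transcripts listed for it. Its level was 25.5, 49.3 and 58.7 FPKM in GapNC replicates 1, 2 and 3 and 74.0, 80.3 and 71.2 FPKM in GapC9 replicates 1, 2 and 3. Every library labelled GapC9 was above every GapNC library, and GapNC replicate 1 was far below the other GapNC libraries. The ratio of means was 1.69, and the log2 difference was 0.84 with an SE of 0.31 (95% interval 0.08 to 1.60, unadjusted p = 0.0350 from limma, adjusted p = 0.161). Without GapNC replicate 1 the log2 difference was 0.48 (adjusted p = 0.0800 from limma). Its GC content was 45.7%. In GapNC replicate 1, genes of 45 to 50% GC had a median deviation of 0.03 on the log2 scale, and SNHG16 deviated by -1.14. After a correction for GC content the log2 difference was 0.86. The cause of the low value in that replicate was not tested.

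GAS5, named for its accumulation on growth arrest, lies at 173863900 to 173868882 of chromosome 1, minus strand. It measured 29.4, 32.1 and 31.9 FPKM in the GapNC libraries and 34.5, 34.8 and 35.5 FPKM in the libraries labelled GapC9. The groups did not overlap and the replicates lay close together, with SDs of 1.53 FPKM in GapNC and 0.534 FPKM in GapC9. The log2 difference was small, 0.17 with an SE of 0.08 (95% interval -0.04 to 0.37, adjusted p = 0.263 from limma), so a change larger than 1.29-fold upward lies outside the interval. This bound holds for the unscaled values alone. With median scaling of the libraries the difference was 0.27 (unadjusted p = 0.0273, adjusted p = 0.141 from limma). After the correction for GC content it was 0.14 (unadjusted p = 0.0336, adjusted p = 0.125 from limma).

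SNHG1, whose introns carry SNORD22 and SNORD25 to SNORD28 among others, spans 62851988 to 62855914 of chromosome 11, minus strand. It measured 31.5, 33.1 and 41.3 FPKM in GapNC and 37.0, 36.1 and 41.0 FPKM in GapC9. The groups overlapped, with GapNC replicate 3 the highest of the 6, and the log2 difference of 0.12 had an interval of -0.21 to 0.44. SNHG5, a host of the SNORD50 snoRNAs at 85660950 to 85678748 of chromosome 6, minus strand, was the steadiest of the low genes, at 8.88, 9.25 and 9.36 FPKM in GapNC and 9.15, 9.68 and 10.1 FPKM in GapC9. The libraries overlapped, and its interval, -0.16 to 0.30 around a log2 difference of 0.07, bounds a rise at 1.23-fold and a fall at 0.898 of the GapNC level.

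SNHG6, the host of SNORD87 at 66921684 to 66926398 of chromosome 8, minus strand, has the lowest GC content of the 10 genes, 41.3%. It measured 35.2, 47.9 and 45.3 FPKM in GapNC and 42.2, 45.1 and 45.1 FPKM in GapC9. GapNC replicate 1 was the lowest of the 6 libraries and GapNC replicate 2 the highest, so the groups overlapped. The log2 difference was 0.06 (95% interval -0.28 to 0.39), and it was -0.08 without GapNC replicate 1 and -0.03 after the correction for GC content.

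The hosts of box H/ACA snoRNAs are SNHG3, SNHG7, SNHG8 and SNHG15. SNHG3, the host of SNORA73A and SNORA73B on the plus strand of chromosome 1 from 28505980 to 28510892, is read together with RCC1, the exchange factor of the GTPase Ran. The joined row measured 48.5, 39.99 and 38.5 FPKM in GapNC and 43.7, 38.6 and 37.5 FPKM in GapC9. Replicate 1 was the highest library of both groups, and the groups overlapped. The log2 difference was -0.08 (95% interval -0.39 to 0.23), and turned to 0.02 without GapNC replicate 1 or with median scaling of the libraries.

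SNHG7, the host of the SNORA17 snoRNAs at 136721366 to 136728184 of chromosome 9, minus strand, has the highest GC content of the 10 genes, 61.2%. It measured 12.7, 10.5 and 10.2 FPKM in GapNC and 11.3, 9.10 and 8.02 FPKM in GapC9. The groups overlapped, since GapC9 replicate 1 was above GapNC replicates 2 and 3. The log2 difference was -0.24 (95% interval -0.64 to 0.17), and it was 0.07 after the correction for GC content.

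SNHG8, the host of SNORA24 on the plus strand of chromosome 4 from 118278709 to 118279823, measured 19.9, 15.2 and 14.6 FPKM in GapNC and 16.5, 13.3 and 16.5 FPKM in GapC9. GapNC replicate 1 was the highest and GapC9 replicate 2 the lowest, with overlap between the groups. Its log2 difference of -0.09 had an interval of -0.49 to 0.31 and was 0.01 with median scaling. SNHG15, the host of SNORA9 at 44983023 to 44986961 of chromosome 7, minus strand, was the lowest of the 10 genes in GapNC. It measured 7.03, 5.36 and 6.06 FPKM there and 7.63, 7.73 and 5.81 FPKM in GapC9. GapC9 replicates 1 and 2 were above all GapNC libraries and GapC9 replicate 3 was not, and the log2 difference was 0.19 (95% interval -0.21 to 0.60). It ran from 0.10 without GapNC replicate 2 to 0.33 without GapC9 replicate 3, and it was 0.35 after the correction for GC content (adjusted p = 0.129 from limma).

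SNHG12 hosts snoRNAs of both kinds, SNORA16A, SNORA44, SNORA61 and SNORD99, and lies at 28578538 to 28583132 of chromosome 1, minus strand. It measured 10.5, 11.2 and 12.7 FPKM in GapNC and 7.84, 9.78 and 4.24 FPKM in GapC9. All libraries labelled GapC9 were below all GapNC libraries, with GapC9 replicate 3 the lowest by a wide margin. The ratio of means was 0.636, and the log2 difference was -0.72 with an SE of 0.31 (95% interval -1.48 to 0.03, unadjusted p = 0.0578 from limma, adjusted p = 0.206). Without GapC9 replicate 3 the log2 difference was -0.38 (adjusted p = 0.290 from limma), and without GapC9 replicate 2 it was -0.97. With median scaling it was -0.62, and the groups then overlapped.

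Grouped by what they host, a grouping made after the values were seen, 5 of 5 box C/D hosts had a log2 difference above 0 (4 of 5 after the correction for GC content, and 4 of 5 without GapNC replicate 1). Of the box H/ACA hosts, 3 of 4 were below 0, but 3 of 4 were above 0 after that correction, with median scaling, and without GapNC replicate 1. The GC content was 41.3 to 45.7% in the box C/D hosts and 45.5 to 61.2% in the box H/ACA hosts, so that the kind of snoRNA and the GC content cannot be told apart in these 10 genes.

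**Figure D3:**
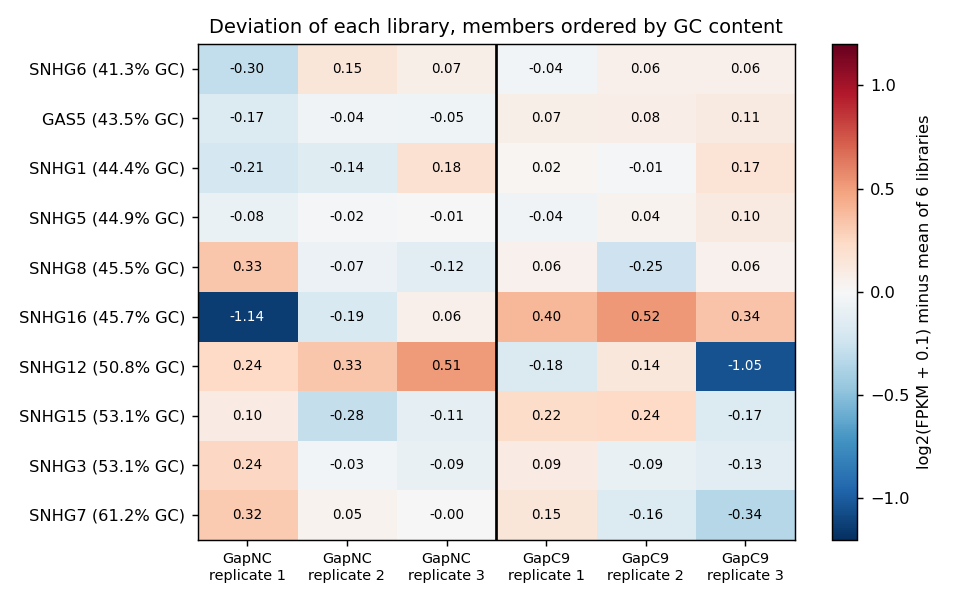
Log2(FPKM + 0.1) of each host RNA (rows, ordered from 41.3 to 61.2% GC) minus its mean over the 6 libraries, for each library (columns, GapNC left of the line and GapC9 right of it). In GapNC replicate 1 the deviation runs from -0.30 in SNHG6 to 0.32 in SNHG7, with SNHG16 apart at -1.14, and SNHG12 is at -1.05 in GapC9 replicate 3.

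Across genes with at least 1 FPKM, the median deviation in GapNC replicate 1 was -0.17 on the log2 scale at 40 to 45% GC and 0.49 at 60 to 65% GC. SNHG6 and SNHG7 lay on the same sides in that library, at -0.30 and 0.32. SNHG8, with 45.5% GC, was at 0.33 and SNHG16, with 45.7% GC, was at -1.14, so 2 genes of like GC content deviated in opposite directions. The part of GC content in the differences between the groups was not tested beyond the corrected values given here.

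Added together, the 10 rows amounted to 229, 254 and 269 FPKM in GapNC and to 284, 285 and 275 FPKM in GapC9. The row of SNHG3 is joined with RCC1, so the sums and shares given here also hold RCC1. The sums did not overlap, and their means were 251 and 281 FPKM (two-sided exact permutation test, p = 0.1, the smallest value possible here). Without SNHG16 the sums were 206 ± 3.37 FPKM (SD, n = 3) in GapNC and 206 ± 3.39 FPKM (SD, n = 3) in GapC9. Its share of the sum was 11.1, 19.4 and 21.9% in GapNC and 26.1, 28.2 and 25.9% in GapC9. The ratio of SNHG16 to SNHG12 within a library does not depend on how the library was scaled. It was 2.43, 4.41 and 4.62 in GapNC and 9.44, 8.21 and 16.8 in GapC9, which is 2.97-fold higher by geometric means. The pair was chosen after the values were seen. SNHG16 was higher and SNHG12 lower without overlap, so their ratio had to separate the groups. The two-sided exact permutation test on log2 ratios (p = 0.1) could thus give no other result and adds no support.

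Poly(A) libraries with inserts much longer than a snoRNA are poorly suited to snoRNAs, and 3 of the hosted snoRNAs had a row of their own. SNORD99, 74 bases long and inside SNHG12, was listed at 1.89, 1.23 and 1.39 FPKM in GapNC and at 0.625, 1.36 and 0.330 FPKM in GapC9. Like SNHG12 it was lowest in GapC9 replicate 3, but its groups overlapped (log2 difference -1.04, SE 0.46, adjusted p = 0.214 from limma). SNORD1B, inside SNHG16, was listed at 1.297, 1.28 and 1.26 FPKM in GapNC and at 1.22, 1.05 and 0.788 FPKM in GapC9. It was lower in GapC9 without overlap, as were 21.6% of all rows. The log2 difference was -0.32 (SE 0.18, adjusted p = 0.313 from limma), with a sign opposite to that of its host. SNORA73B, inside SNHG3, was listed at 0.215 FPKM in GapNC replicate 1 and at 0 in the other 5 libraries. At these lengths and levels each value rests on a few fragments at most, by the depth given above. The directions of these rows are therefore not read as following or opposing their hosts. Fragments from unspliced host RNA and from the mature snoRNA cannot be told apart in such rows.

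Host genes often sit close to other genes, and the sources used here do not state whether strand was used in counting. Exons of SNHG6, SNHG7, SNHG12, SNHG16 and GAS5 overlap exons of a gene on the opposite strand in GENCODE. The longest of these overlaps, 1639 of the 5362 exonic bases of SNHG16, is with AC015802.6, whose row is joined with ST6GALNAC2, a sialyltransferase gene. That row was listed at 0.702, 0.418 and 0.797 FPKM in GapNC and at 1.21, 0.792 and 0.822 FPKM in GapC9. It overlapped between groups and was far below SNHG16 (log2 difference 0.51, adjusted p = 0.298 from limma). FAM69B, opposite SNHG7, was at 1.13 to 2.005 FPKM with a log2 difference of -0.48 (adjusted p = 0.1996 from limma), and MCMDC2, opposite SNHG6, was below 0.3 FPKM in all 6 libraries.

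Of the tested genes next to a host, CCM2 alone passed, while 6.99% of all rows passed in either direction. The call is therefore not read as a trait of genes next to hosts. CCM2, a gene of cerebral cavernous malformation, begins 12514 bases from SNHG15 on the other strand, and measured 2.64, 2.01 and 1.83 FPKM in GapNC and 1.27, 1.08 and 0.920 FPKM in GapC9. It fell by 0.92 on the log2 scale (adjusted p = 0.0468 from limma, and 0.0751 to 0.147 with each library left out in turn), with every library labelled GapC9 below every GapNC library, while the log2 difference of SNHG15 was 0.19. ZBTB37, a zinc finger gene that overlaps GAS5 on the other strand, was listed at 0.505, 1.43 and 1.44 FPKM in GapNC and at 0.126, 0.0678 and 0.503 FPKM in GapC9. It was lower in GapC9 without overlap, as were 21.6% of all rows (log2 difference -1.99, SE 0.60, adjusted p = 0.107 from limma). SLC3A2, the heavy chain of amino acid transporters, starts 188 bases from SNHG1 on the other strand and differed by 0.06, and PRSS12, 215 bases from SNHG8 on the other strand, by 0.28, with adjusted p-values of 0.866 and 0.213 from limma.

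A further list held other noncoding snoRNA hosts, of which 17 rows were tested. Of these, 1 passed as higher, DANCR, an lncRNA known for holding progenitor cells undifferentiated, against 1.89% of all rows. As lower, 0 of 17 were called, against 5.1% of all rows. DANCR measured 4.49, 4.68 and 5.35 FPKM in GapNC and 13.4, 8.50 and 9.27 FPKM in GapC9. It rose by 1.06 on the log2 scale (SE 0.20, adjusted p = 0.0366 from limma), and every library labelled GapC9 was above every GapNC library. Leaving out each of the 6 libraries in turn gave adjusted p-values of 0.0727 to 0.109 and a log2 rise of 0.87 to 1.19. The list had a median log2 difference of 0.09, with 11 above 0 and 6 below. Among 17 tested lncRNAs that host no snoRNA, 1 passed, TUG1, against 6.99% of all rows called in either direction, and the median was 0.01. TUG1 measured 6.28, 6.30 and 6.12 FPKM in GapNC and 10.6, 10.6 and 12.4 FPKM in GapC9 (log2 rise 0.83, adjusted p = 0.0192 from limma).

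Many coding genes, those of ribosomal proteins among them, also carry snoRNAs in their introns. Of 23 ribosomal protein and related hosts, 0 passed the adjusted threshold against 6.99% of all rows (4 had an unadjusted p under 0.05 in limma, against 25.9% of all rows), and the median log2 difference was 0.10. The members farthest from 0 were RPL5 at -0.28 and RPL21 at 0.28, both proteins of the large ribosomal subunit. Of 26 other coding hosts 1 passed, again against 6.99% of all rows. This was EIF4A2, an RNA helicase related to the translation initiation factor eIF4A1. It measured 42.8, 52.1 and 46.1 FPKM in GapNC and 77.5, 84.5 and 82.6 FPKM in GapC9, a log2 rise of 0.80 (adjusted p = 0.0193 from limma). Among 19 other mRNAs of the 5' terminal oligopyrimidine class, which share the pyrimidine start, 0 passed (3 had an unadjusted p under 0.05 in limma, again against 25.9% of all rows) and the median was 0.13.

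Of 19 genes for the core proteins and assembly factors of snoRNA particles, NOLC1 was higher and RUVBL1 lower past the threshold, 1 in each direction against 1.89% of all rows called higher and 5.1% called lower. NOLC1, a chaperone of snoRNA particles in the nucleolus and Cajal bodies, rose from 125 ± 6.18 to 169 ± 11.4 FPKM (SD, n = 3). RUVBL1, an ATPase that helps to assemble these particles, fell from 22.8 ± 1.76 to 15.1 ± 0.698 FPKM (SD, n = 3). Their log2 differences were 0.43 and -0.59, with adjusted p-values of 0.0439 and 0.0314 from limma.

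Of 18 factors of nonsense-mediated decay, 3 were lower past the threshold (SMG5, SMG6 and NBAS) and 0 higher. Of all rows, 5.1% were called lower and 1.89% higher. SMG6, the endonuclease of this pathway, measured 4.23, 3.64 and 3.28 FPKM in GapNC and 2.17, 1.45 and 1.32 FPKM in GapC9. Its groups did not overlap, and it fell by 1.15 on the log2 scale (adjusted p = 0.0372 from limma). SMG5, an adaptor that recruits enzymes of RNA decay, fell by 0.96, and NBAS, which takes part in decay at the endoplasmic reticulum, fell by 0.76, with adjusted p-values of 0.0379 and 0.0210 from limma. Of the 18 factors, 11 had a log2 difference above 0, and the median was 0.07. Of 21 mRNAs known as substrates of the pathway, 2 passed as lower and 2 as higher, against 5.1% and 1.89% of all rows. The 2 lower ones were again SMG5 and SMG6, which belong to both lists, and the 2 higher ones were ATF3 and ASNS. ATF3, a stress transcription factor, rose from 6.03 ± 0.541 to 12.3 ± 0.663 FPKM (SD, n = 3). ASNS, the asparagine synthetase gene, whose row also joins 2 other names, rose from 20.9 ± 1.998 to 32.2 ± 1.99 FPKM (SD, n = 3). The list median was 0.01. The 10 genes named above as past the threshold in these lists kept their direction with each library left out, but TUG1, EIF4A2, NBAS, ATF3 and ASNS were the ones below an adjusted p of 0.05 without GapNC replicate 1, and 0 of the 10 were below it without any of the other 5 libraries. GAS5, the host RNA best known as a substrate, differed by 0.17 on the log2 scale with an interval that includes 0 in the unscaled values.

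The 5 rows whose course over the 6 libraries was nearest to the mean course of the host RNAs were MALL, the row that joins RPS15A and ARL6IP1, EIF5, the row that joins DDX5 and POLG2, and MCM6. They were taken from 3197 rows that averaged 10 FPKM or more without a 0, by the mean absolute distance of centered log2 values, which was 0.02 to 0.03 for these rows. The host RNAs themselves lay 0.06 (SNHG5) to 0.41 (SNHG16) from their own mean course. SNHG12, at 0.40, and SNHG16 thus followed it least.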

How the data were processed

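RNA-seq libraries of HCT-116 cells, 3 GapNC and 3 GapC9, were compared. The authors aligned paired reads, assembled transcripts with StringTie and deposited FPKM in 1 table, without counts. The submitters' processing notes name HISAT2 2.0, StringTie 1.3.0 and Bowtie 0.12.2, and a mouse genome build, although the identifiers in the table are human. FPKM is relative, so a rise in abundant RNAs lowers all other values.

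Rows with a mean of at least 0.1 FPKM (16028) were fitted with limma 3.58.1 (lmFit, eBayes with trend) in R 4.3.3 on log2(FPKM + 0.1), without a covariate, with Benjamini-Hochberg adjustment over all rows and a threshold of 0.05. The procedure was checked on simulated data. Gene positions, exons and GC content came from GENCODE release 29 (GRCh38), and start sequences from RefSeq (GRCh38.p14). The members and the lists were chosen with earlier results of these data known. Text was given for every member, for list genes past the threshold (up to 4 per list, up to 8 of the other noncoding hosts) or otherwise the 2 farthest from 0, for hosted snoRNAs, neighboring genes and the 5 nearest rows. Of the marker lists only levels are given. Alternatives were other pseudocounts, filters, scalings and variance models, a replicate block, leaving out each library and, chosen after the values were seen, a GC correction (lowess, span 0.3). Of the lists, 2 genes are not reported here and were left out of all counts over them.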

Additional observations from a re-analysis of the deposited data

How the results depend on the processing

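The adjusted call was made for 0 of the 10 host RNAs under all 18 alternatives, and SNHG1, SNHG5, SNHG12, SNHG15, SNHG16 and GAS5 kept their direction under all of them. The cause of the differences listed next was not tested. With median scaling, which moved the median of all rows by 0.099 on the log2 scale, the median of the host RNAs was 0.16, SNHG3 turned to 0.019 and SNHG8 to 0.0076, and 0 host RNAs were lower without overlap. That last count was also 0 with quantile normalization and with the GC correction. An unadjusted p under 0.05 in limma was reached by SNHG16 and GAS5 with median scaling, and by SNHG15, SNHG16 and GAS5 with the GC correction. With any 1 GapC9 library left out SNHG16 was above it, and SNHG12 was below it without GapC9 replicate 2. The GC correction turned SNHG3 to 0.0735, SNHG6 to -0.0305 and SNHG7 to 0.0741, and 2 of the other noncoding hosts were then called higher. Without the filter on low values 0 of those hosts were called. Of the 11 genes outside the host RNAs that the text gives as past the threshold, 5 were past it without the filter (DANCR, NOLC1, SMG5, SMG6, ASNS and CCM2 were not) and 6 in limma without trend (RUVBL1, NOLC1, SMG5, ASNS and CCM2 were not). CCM2 was also past it in neither scaling nor with a pseudocount of 1, and 0 of the 11 were past it with the replicate block, at adjusted p-values of 0.0608 to 0.0741.

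Whether the replicate numbers pair the libraries is not stated and could not be told from these data. The deviations of same-numbered libraries correlated at 0.097, 0.0398 and 0.0243. GapNC replicates 1 and 2 correlated best with the library of their own number, and GapNC replicate 3 with GapC9 replicate 2 (0.0578). With a replicate block in limma, 0 host RNAs, 0 of the other noncoding hosts and 0 of all rows passed the adjusted threshold, with 1, 5 and 4570 at an unadjusted p under 0.05. With the block and the GC correction together 0 host RNAs and 0 other noncoding hosts passed, 0 host RNAs were lower without overlap, and SNHG3, SNHG6 and SNHG7 again stood at 0.0735, -0.0305 and 0.0741.

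With each library left out in turn, calls over all rows fell from 1120 to between 34 and 814, with 814 when GapNC replicate 1 was left out. Host RNAs past the fold and unadjusted p numbered 0 to 1 (SNHG16 without GapNC replicate 3, ratio 2.01), those lower without overlap 1 to 2, and other noncoding hosts called 0 higher and 0 to 1 lower (EPB41L4A-AS1 without GapNC replicate 3). SNHG3 ranged from -0.15 to 0.022, SNHG6 from -0.078 to 0.14 and SNHG8 from -0.18 to 0.0498. Neighbors apart in every GapNC library numbered 5 to 8. The table gives no counts, so counting error is unknown, and 3 libraries per group bound a host RNA's difference no more tightly than the intervals given.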
